A study of Mus musculus with 8 samples.

Results

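Gapdh, B2m, Hsp90ab1 and Rpl13a are housekeeping genes, transcripts that most cells make at all times and that are often used as references when other genes are measured. Probes for them were found in the array files through their RefSeq transcript, after the version was removed. These 4 genes are among 112 with a symbol found in this way, and each has 1 probe, repeated in 20 spots on every array. The study compared hearts of mice with a floxed Klf5 gene and no Cre recombinase, the controls, with hearts of aMHC-KLF5-/- mice, in which Cre under the alpha myosin heavy chain promoter deletes Klf5 in cardiomyocytes. There were 4 control and 4 knockout mice, all male and 8 to 12 weeks old, measured at basal level with no treatment, and each one-colour array held RNA from the whole heart of 1 mouse. Whole heart also holds endothelial cells, fibroblasts and blood cells, in which this Cre is not active, and the groups differ in the Cre transgene as well as in Klf5. Klf5 and the markers of heart cell types were not analysed here, so neither the deletion nor the tissue label was checked.

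Each of the 4 genes stands for a different piece of cell upkeep. Gapdh encodes glyceraldehyde-3-phosphate dehydrogenase of glycolysis. B2m encodes beta-2 microglobulin, the light chain that class I histocompatibility molecules need to reach the cell surface, and its transcription is known to respond to interferon and NF-kappaB signals. Hsp90ab1 encodes the constitutive cytosolic HSP90 chaperone, and Rpl13a a protein of the large ribosomal subunit. Klf5 is a Kruppel-like factor, a family whose zinc fingers bind GC boxes and CACCC boxes. The heart draws most of its energy from fatty acids and also burns glucose, which passes through the step that Gapdh catalyses.

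The promoters are shown because the study removed a DNA-binding factor and because B2m, described below, varied most of the 4 genes among these hearts. Sequences for 3 of the 4 genes were found in the RefSeq promoter table of build GRCm38.p6, and Hsp90ab1 has no entry there. Each line gives the 250 bases before the annotated start, 5′ to 3′ along the gene, with capitals marking matches on either strand to any of 4 motifs. GGGCGG is the GC box and was found in 32.7% of all 32851 promoter windows of this length. The CACCC box was found in 52.0% of these windows. The motif CCAAT, the box bound by NF-Y, was found in 33.8%. The TATA-like motif was written as TATANAA, where N is any base, and was found in 10.4%.
Gapdh, chr6:125165774-125166023, - strand: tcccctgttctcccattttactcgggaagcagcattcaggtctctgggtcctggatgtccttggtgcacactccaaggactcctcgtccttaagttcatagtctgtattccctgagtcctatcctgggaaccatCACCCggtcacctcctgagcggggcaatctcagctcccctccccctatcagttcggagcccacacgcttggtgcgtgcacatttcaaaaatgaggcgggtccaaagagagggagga
B2m, chr2:122147437-122147686, + strand: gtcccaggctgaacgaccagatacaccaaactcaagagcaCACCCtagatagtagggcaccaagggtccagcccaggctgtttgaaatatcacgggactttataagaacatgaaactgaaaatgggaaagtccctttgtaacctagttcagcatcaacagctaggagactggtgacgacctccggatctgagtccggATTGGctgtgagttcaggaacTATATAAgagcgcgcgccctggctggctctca
Rpl13a, chr7:45128746-45128995, - strand: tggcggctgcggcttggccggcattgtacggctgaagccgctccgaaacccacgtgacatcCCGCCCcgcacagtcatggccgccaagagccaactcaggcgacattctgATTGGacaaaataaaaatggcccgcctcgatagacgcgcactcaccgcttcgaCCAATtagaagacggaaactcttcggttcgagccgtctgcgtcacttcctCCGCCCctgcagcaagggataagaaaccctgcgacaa
The Gapdh window held 1 CACCC match, 116 bases before the start, and none of the other motifs. The B2m window held 1 match each to CACCC, to the CCAAT box and to the TATA-like motif, the last of these 32 bases before the start, and no GC box. The Rpl13a window held 2 GC boxes and 2 CCAAT boxes, and neither of the others. These matches are letters in a sequence and were not tested as binding sites.

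All 4 probes gave bright signals in the heart. Values are the log2 processed spot intensity, averaged over spots, minus the 75th percentile of the array, so a value of 0 is that percentile and 1 is a doubling. Gapdh was the 37th to 48th brightest of 59709 non-control probes on the 8 arrays, with 99.9% of probes dimmer. For B2m 97.8% to 98.7% of probes were dimmer, for Hsp90ab1 98.4% to 98.6%, and for Rpl13a 93.1% to 94.0%. Of the 59709 probes 123 have an accession in the form of a RefSeq transcript. The scaling, these ranks and the shares of probes given below are therefore not relative to the messenger RNAs of the heart. Brightness also depends on the probe, so these ranks describe the probes and do not order the transcripts by abundance. Every spot of the 4 genes was well above background on every array, with local background of 18 to 30 intensity units at the spots against median signals from 4985, for Rpl13a, to 223504, for Gapdh. The brightest raw spot of Gapdh reached 255679, below the scanner's saturation value of 778249. That value concerns the scanner alone. Whether the signal of a probe this bright rises in proportion to its RNA was not tested. Gapdh and ribosomal protein genes have many processed pseudogenes, and RNA from such copies cannot be told apart here.

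Gapdh, the glycolytic enzyme, varied little between hearts. Its values were 9.36, 9.29, 9.38 and 9.35 in control replicates 1 to 4 and 9.49, 9.34, 9.35 and 9.34 in knockout replicates 1 to 4. Knockout replicate 1 was above every other heart, and the other knockout hearts lay within the control range. The mean was 9.35 ± 0.04 for controls and 9.38 ± 0.08 for knockouts (SD, n = 4 each). The difference, knockout minus control, was 0.03 on the log2 scale (-0.029 with median centring), a fold of 1.02 with a limma 95% interval of 0.899 to 1.16 and a limma adjusted p of 0.928. Without knockout replicate 1 the difference was -0.0071. The unscaled log2 signal of that heart was 17.73, inside the 17.70 to 17.78 of the other knockout hearts. The 75th percentile of its array was 8.24, against 8.37 to 8.44 on the other knockout arrays. Control replicates 3 and 4 also had low percentiles, 8.22 and 8.28, with unscaled Gapdh signals of 17.61 and 17.63. What set knockout replicate 1 apart was not tested. With quantile normalization the Gapdh value of knockout replicate 1 was 17.73, against 17.69 to 17.73 in the other knockout hearts. That method sets a value by the probe's rank, and Gapdh ranked 37th to 48th on all 8 arrays. Near equality was thus fixed in advance, and these values do not bear on its spread between hearts.

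B2m, the class I light chain, was the least even of the 4 genes. Its values were 7.67, 6.91, 6.97 and 7.72 in control replicates 1 to 4 and 6.75, 7.60, 7.06 and 7.58 in knockout replicates 1 to 4. In both genotypes 2 hearts were high and 2 were low, and the widest gap in the ordered values was 0.52, between 7.06 and 7.58. The 4 hearts above the gap spanned 0.14 and the 4 below it spanned 0.31. The brightest and the dimmest heart differed 1.96-fold. The mean was 7.32 ± 0.43 for controls and 7.25 ± 0.42 for knockouts (SD, n = 4 each). The genotype difference was -0.07, a fold of 0.951 with a limma 95% interval of 0.620 to 1.46 and a limma adjusted p of 0.9505. This interval is the widest of the 4. Its sign turned when control replicate 1, control replicate 4 or knockout replicate 1 was left out, with differences of 0.04, 0.06 and 0.09. B2m is made by nearly all cells, immune cells above all, and in whole-heart RNA a change in the number of cells of a type cannot be told apart from a change per cell.

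Hsp90ab1, the chaperone, had values of 7.57, 7.66, 7.51 and 7.58 in control replicates 1 to 4 and 7.42, 7.47, 7.61 and 7.69 in knockout replicates 1 to 4. Knockout replicates 1 and 2 lay below every control and knockout replicate 4 above every control. The mean was 7.58 ± 0.06 for controls and 7.55 ± 0.12 for knockouts (SD, n = 4 each). The difference was -0.04, a fold of 0.976 with a limma 95% interval of 0.842 to 1.13 and a limma adjusted p of 0.929. Its sign turned without knockout replicate 1, to 0.0077.

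Rpl13a, the ribosomal protein gene, had the largest genotype difference of the 4. Its values were 4.17, 4.08, 4.06 and 4.10 in control replicates 1 to 4 and 4.11, 4.26, 4.25 and 4.35 in knockout replicates 1 to 4. Knockout replicates 2, 3 and 4 were above every control, and knockout replicate 1 lay inside the control range, so the groups overlapped. The mean was 4.10 ± 0.05 for controls and 4.24 ± 0.10 for knockouts (SD, n = 4 each). The difference was 0.14, a fold of 1.105 with a limma 95% interval of 0.963 to 1.27. It did not pass, with a limma adjusted p of 0.703 and an unadjusted p of 0.134, and the exact two-sided permutation test gave 0.0571. With the variance of this probe alone, in place of limma's estimate that borrows from all probes, the unadjusted p was 0.0432 and the adjusted p 0.673.

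**Figure D1:**
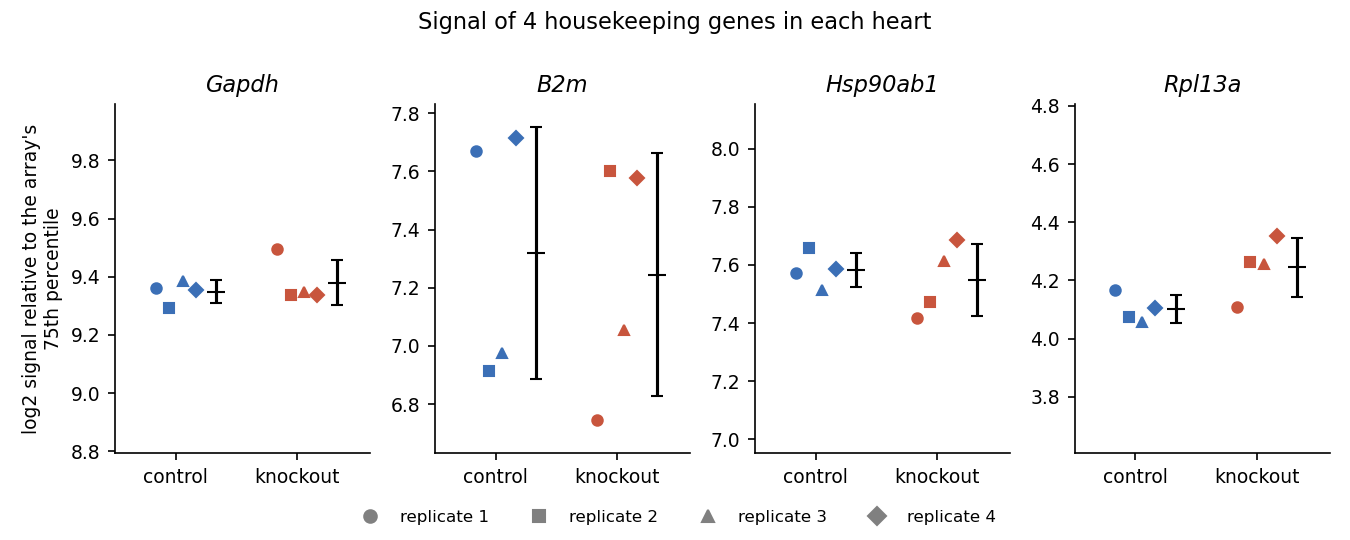
Log2 signal relative to the array's 75th percentile (y axis) of the 4 genes in each control and knockout heart, with 1 symbol per replicate and the mean ± SD in black. Every panel spans the same range of log2 units, and B2m spreads over 0.97 units while Gapdh spreads over 0.20.

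None of the 4 genes was called. In limma 0 of 4 had an adjusted p under 0.05, where 0.14% of all 27878 tested probes did. At an unadjusted p under 0.05 there were also 0 of 4, against 8.06% of tested probes. With the ordinary variance 0 of 4 were called, where 25 of 27878 tested probes were. Under it 1 of 4, Rpl13a, had an unadjusted p under 0.05. The share of tested probes with such a p under the ordinary variance is not given here, and the limma share of 8.06% does not apply. Whether 1 of 4 is more than the array gives therefore cannot be told. The groups overlapped for all 4, and they did not overlap for 5.75% of tested probes. The absolute differences of Gapdh and Hsp90ab1 were larger than those of 13.7% and 15.3% of tested probes. That of B2m was larger than 30.0% and that of Rpl13a larger than 51.6%. The median absolute difference was 0.137 over all tested probes but 0.061 over the brightest 10%, which hold Gapdh, B2m and Hsp90ab1 but not Rpl13a. In size the B2m difference was above the median of these bright probes, and those of Gapdh and Hsp90ab1 were below it. A call that is missed does not show equal expression, and the intervals above give the range of differences that limma's estimate of the spread allows. The limma SE of the difference was 0.080 for Gapdh, 0.093 for Hsp90ab1, 0.086 for Rpl13a and 0.27 for B2m. The spread of each gene's own hearts alone gives 0.043 for Gapdh, 0.069 for Hsp90ab1, 0.056 for Rpl13a and 0.30 for B2m. Limma draws variances toward those of other probes, which raised the SE of Gapdh, Hsp90ab1 and Rpl13a and lowered that of B2m.

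The array repeats 11 other genes in 20 spots, many of them also common references, and 10 of them passed the filter on signal. In limma 0 of these 10 were called and 0 had an unadjusted p under 0.05, with 9 differences above 0 and 1 below. These counts turned to 3 above and 7 below when arrays were centred on their median, and to 5 and 5 without knockout replicate 1. Their median absolute difference was 0.04. The largest was that of Actb, a cytoplasmic actin, at 0.46 with an SE of 0.24, and the smallest that of Tbp, the TATA-binding protein, at 0.0021 with an SE of 0.083. Of 29 other reference genes listed for comparison 8 were named and tested, with 0 called in limma and 8 differences above 0. With median centring 2 were above 0, without knockout replicate 1 there were 4, and without control replicate 2 there were 5. These 8 are also among the 10. The lists for glycolysis, class I antigen presentation, the HSP90 system and ribosomal proteins had 0 other named genes, so the pathways of the 4 genes were not analysed here.

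**Figure D2:**
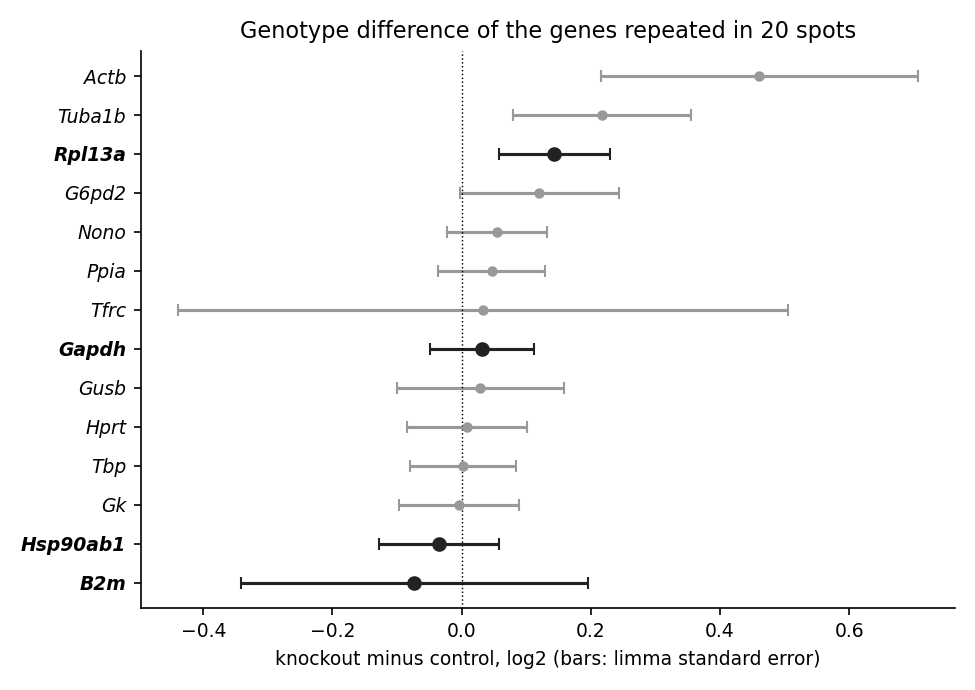
Difference between knockout and control hearts on the log2 scale (x axis) for the 14 tested genes that the array repeats in 20 spots, with bars of 1 limma standard error. The 4 genes described here are in bold and run from -0.07 for B2m to 0.14 for Rpl13a.

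The 4 genes differed in their spread between hearts. The pooled SD within genotypes was 0.061 for Gapdh, 0.079 for Rpl13a, 0.097 for Hsp90ab1 and 0.43 for B2m. This order held in all 16 settings in which the SD was computed, but the size of the small SDs rested in part on 1 heart. Without knockout replicate 1 the SD was 0.031 for Gapdh and 0.050 for Rpl13a. With quantile normalization it was 0.021 for Gapdh, but that method sets values by rank, which hardly differed for Gapdh. The median over all tested probes was 0.22, and over the brightest 10% of them 0.11. In order from the smallest, these SDs were the 2nd, 5th, 6th and 13th of the 14 tested genes in 20 spots. When tested probes were split by brightness into 10 classes of equal size, each gene shared its class with 2788 probes. Of these, 9.15% had a smaller SD than Gapdh, 38.5% than Hsp90ab1, 5.13% than Rpl13a and 97.6% than B2m. Without knockout replicate 1 these shares were 0.538%, 30.2%, 1.22% and 96.9%. Most of those probes have 1 spot. With 1 spot in place of the mean of 20, the median pooled SD was 0.080 for Gapdh, 0.107 for Hsp90ab1, 0.088 for Rpl13a and 0.426 for B2m. Of the same probes 24.2%, 46.2%, 7.57% and 97.6% were below these. Flagged spots were kept for these single spots but left out for the other probes, so the shares are not like for like. The mean of 20 spots with flagged spots kept gave 0.059, 0.099, 0.076 and 0.426 in the same order. The SD among knockout hearts was 1.94 times that among controls for Gapdh, 2.12 for Hsp90ab1, 2.15 for Rpl13a and 0.962 for B2m. These ratios of SDs over 4 hearts each were not tested, and they rest on single hearts. Without knockout replicate 1 the ratio was 0.139 for Gapdh, below 1, and 1.15 for Rpl13a. Without control replicate 2 it was 4.81 for Gapdh and 3.31 for Hsp90ab1, and without control replicate 1 it was 4.31 for Rpl13a.

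**Figure D3:**
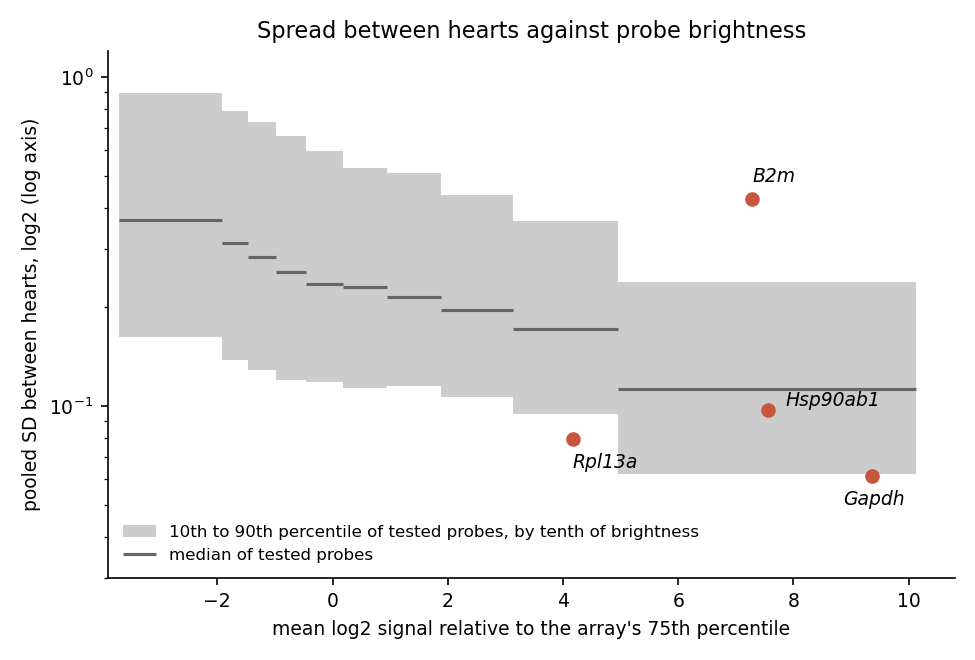
Pooled SD between hearts of one genotype (y axis, log scale) against mean log2 signal (x axis) for the 4 genes, with the median and the 10th to 90th percentile of tested probes in 10 classes of brightness. B2m, at 0.43, lies above the band of the brightest class, whose 90th percentile is 0.24.

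The repeated spots show how much of this spread is measurement on the array. Within an array the SD over the spots used was 0.015 to 0.055 for Gapdh, 0.034 to 0.065 for B2m, 0.043 to 0.061 for Hsp90ab1 and 0.028 to 0.078 for Rpl13a. With flagged spots kept it was 0.042 to 0.084, 0.054 to 0.084, 0.043 to 0.104 and 0.042 to 0.078 in the same order. The squared standard error of the mean of the spots used was 2.28% of the variance between hearts for Gapdh, 1.55% for Hsp90ab1, 2.54% for Rpl13a and 0.0851% for B2m. The error among spots was therefore small beside the differences between hearts for each gene, though spots of an array share its RNA, labelling and hybridisation. Outlier flags of the scanner software removed spots unevenly. For Gapdh 13 of 80 control spots and 0 of 80 knockout spots were left out, and for Rpl13a 1 and 8. For B2m 7 control and 2 knockout spots were left out, and for Hsp90ab1 4 and 1. With flagged spots kept the differences were 0.012 for Gapdh, 0.14 for Rpl13a, -0.07 for B2m and -0.03 for Hsp90ab1. Across the 28 pairs of arrays, the deviations of the 20 spots from their array mean had a mean correlation of 0.37 for B2m, 0.41 for Hsp90ab1, 0.49 for Rpl13a and 0.02 for Gapdh. The spots share their place on every array.

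**Figure D4:**
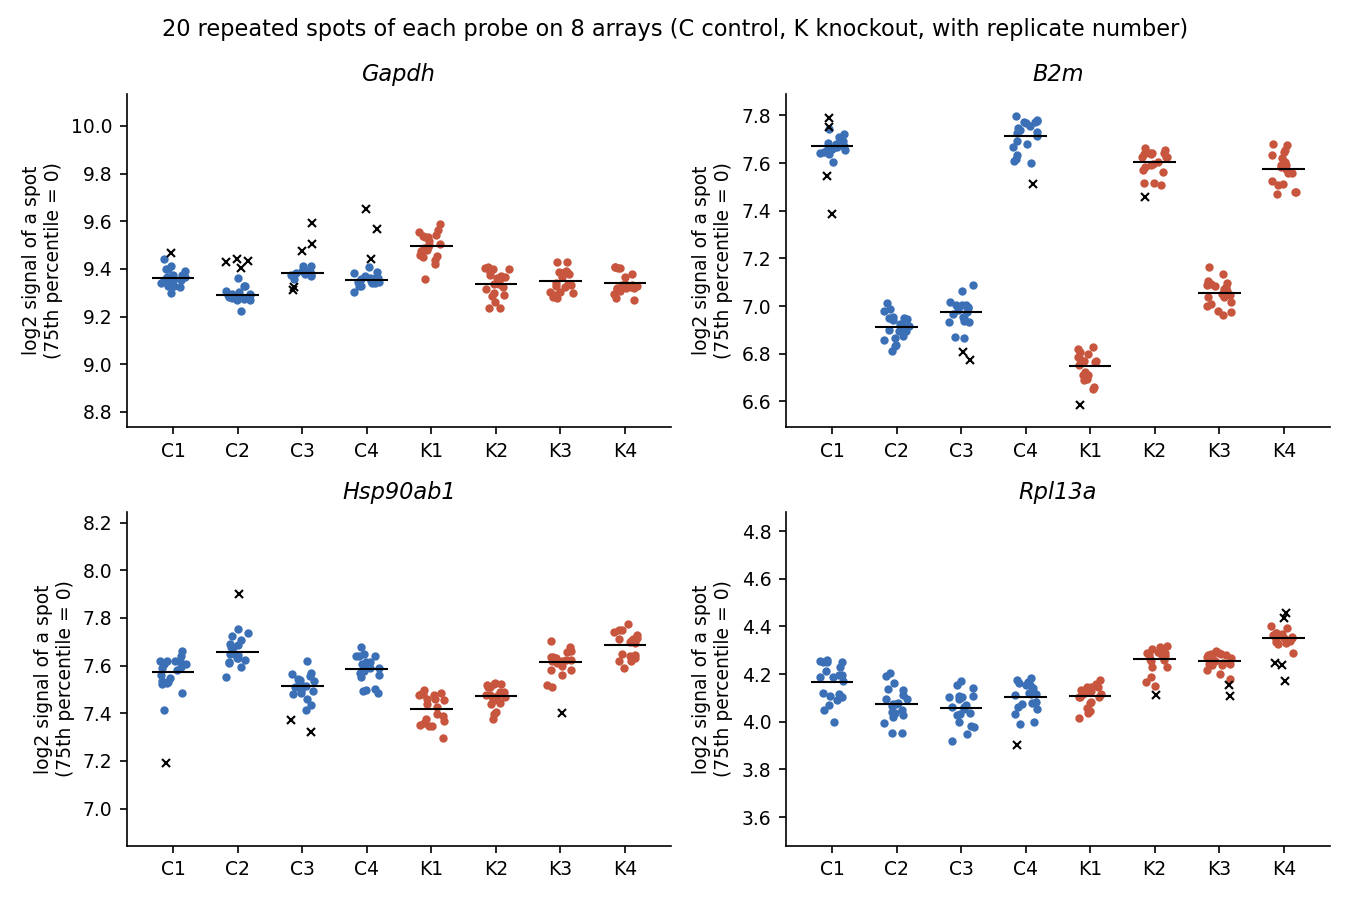
Log2 signal of each of the 20 spots (y axis) on the 8 arrays, with controls C1 to C4 in blue, knockouts K1 to K4 in red, the mean of the spots used as a line and flagged spots as crosses. The B2m spots of arrays C1, C4, K2 and K4 lie apart from those of the other arrays, and 13 Gapdh spots on control arrays are crossed out.

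Scaling between arrays mattered for some genes and not for others. The 75th percentiles of the arrays spanned 0.25 log2 units. Without scaling the pooled SD was 0.190 for Hsp90ab1 and 0.165 for Rpl13a, against 0.097 and 0.079 with it. For Gapdh it was 0.062 without scaling and 0.061 with it, and for B2m 0.459 and 0.426. Quantile normalization gave 0.021 for Gapdh, a value held small by its narrow range of ranks. Subtracting the 75th percentile thus lowered the spread of Hsp90ab1 and Rpl13a and hardly altered that of Gapdh. What lies behind this difference was not tested.

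Ratios between probes of the same array do not depend on a scaling that shifts all probes of an array alike, and they ask whether the genes changed by the same amount. Each ratio is given minus its control mean, which takes out the probes' own brightness. Of the 6 pairs, Hsp90ab1 over Rpl13a was the steadiest, with a pooled SD of 0.070, smaller than that of either gene alone. Without knockout replicate 1 its SD was 0.076, above the 0.057 of Gapdh over Rpl13a and the 0.050 of Rpl13a alone. This ratio was -0.07, 0.10, -0.02 and -0.0018 in control replicates 1 to 4 and -0.17, -0.27, -0.12 and -0.15 in knockout replicates 1 to 4. All 4 knockout hearts were below all 4 controls. The difference was -0.18, with an exact permutation interval at 97.1% confidence of -0.37 to -0.05. The exact two-sided permutation p was 0.0286, the smallest that 4 against 4 hearts allow, and 0.171 after Benjamini-Hochberg adjustment over the 6 pairs, so it did not pass. Quantile normalization, which does not shift all probes alike and was added here after the data were seen, gave -0.21 with the same exact permutation p. Without knockout replicate 2 the difference was -0.15 with an exact permutation p of 0.0571. The exact permutation test gave an unadjusted p of 0.286 for Gapdh over Rpl13a, with a difference of -0.11. Without knockout replicate 1 this difference was -0.20, with the 3 knockout hearts left all below the controls. The exact permutation p was then 0.0286, and 0.0857 adjusted over all pairs. It was -0.062 without knockout replicate 4 and -0.17 with quantile normalization, where the exact permutation p was 0.0571. The other pairs had an exact permutation p of 0.457 or more. Ratios with B2m had pooled SDs of 0.37 to 0.45, and between them their exact permutation intervals reached from -0.97 to 1.11. The ratio of Gapdh to Hsp90ab1 differed by 0.07, with an exact permutation interval of -0.22 to 0.44.

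**Figure D5:**
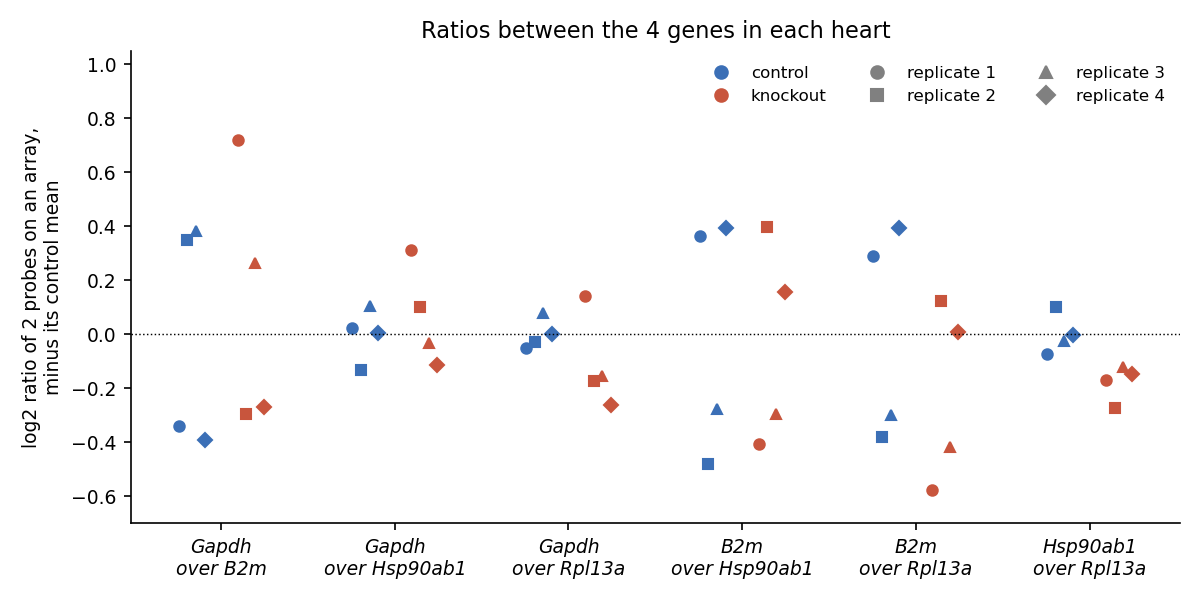
Log2 ratio of the probes of each pair of genes on the same array, minus the control mean (y axis), for control (blue) and knockout (red) hearts, with 1 symbol per replicate. For Hsp90ab1 over Rpl13a every knockout heart is below every control, and the 3 ratios with B2m spread most.

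The patterns of other genes with a symbol were set beside these 4 across the 8 hearts. The likeness was taken as Pearson's r with each of 85 other tested genes, as a description over arrays that share their scaling. This r was taken again without the 2 hearts farthest from the gene's median. The 2 genes named for each are those of highest r out of 85. Whether such values pass what unrelated genes give over 8 arrays was not tested. Gapdh was most like Nim1k, a kinase gene, with r = 0.87 (Spearman's rho 0.64), and 0.69 without the 2 hearts. Next came Gm21943, with r = 0.68, which fell to 0.0051, so that likeness rests on those hearts. B2m was most like H2al2b, a histone variant gene, with r = 0.84 (rho 0.71), and Csprs, with r = 0.82 (rho 0.83), and without the 2 hearts these were 0.83 and 0.81. Hsp90ab1 was most like Nlrp4g, with r = 0.80 (rho 0.76), and 0.73 without the 2 hearts, and then G6pd2, with r = 0.54, which rose to 0.81 without them, so the order of these likenesses turns. Rpl13a was most like E330014E10Rik, with r = 0.87 (rho 0.83), and 0.64 without the 2 hearts, and then G6pd2, with r = 0.77, and 0.61 without the 2 hearts. All of these probes had mean control values below 0 on the log2 scale used here, and so were far dimmer than the probes of the 4 genes. Over all 27877 other tested probes, r was 0.9 or more for 53 with Gapdh, 21 with B2m, 34 with Hsp90ab1 and 85 with Rpl13a. These are shares of 0.19%, 0.0753%, 0.122% and 0.305%, and whether they pass what unrelated probes give over 8 arrays was not tested. Within the brightest 10% of probes these were 7, 0, 8 and 5 probes.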

How the data were processed

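The authors deposited spot intensity for each array as written by Agilent Feature Extraction 11.0.1.1, per the file headers and the submitters' processing notes. Per the labels, RNA depleted of ribosomal RNA was copied with random primers and labelled with Cy3. The processed intensity is background-corrected and was not scaled between arrays. The authors' deposited table of log2 values holds 21341 probes and 0 of the 4 genes, so it served only for a count of calls over all probes. The array design names build mm9.

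Control spots, 20 negative-control probes and spots with outlier flags were left out. Log2 intensity was averaged over the spots of a probe, and the 75th percentile over 59709 probes was subtracted. The test took in probes with 3 or more usable arrays in both groups that were well above background, in over 50% of their spots, on all usable arrays of either group, 27878 in all. Knockout and control arrays were compared in limma (version 3.58.1, R 4.3.3), and p-values were adjusted by Benjamini-Hochberg over all tested probes, with a threshold of 0.05. Pairs of genes were compared by exact permutation, and the exact interval holds the shifts that this test does not reject. The limma steps were tested on simulated data for 27838 probes, 200 of them changed, and recovered 64% of differences of 1 and 85% of those of 2, with 14 false calls among 163. The number of arrays limits the precision. All 8 arrays shared 1 scan time. No first part of the array position code was shared by the groups, so its effect cannot be told apart from that of genotype. The second part equals the replicate number. Between 27806 and 43290 probes per array were well above background.

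The rule for named genes takes the 4 genes, the 2 genes of highest correlation with each, and, of the other genes in 20 spots, those with the largest and smallest difference. Lists of cell type markers had 0 named genes on the array. The members and lists were chosen with earlier results of these data known. Alternatives were other background corrections, scalings, filters and variance estimates, flagged spots kept, medians over spots, the replicate block and leaving out each array.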

Additional observations from a re-analysis of the deposited data

Results flagged for a closer look

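Of 20 groups of 4 hearts examined for a single distant value, 1 had such a value, which is the number that chance gives. In knockout replicate 1 the Gapdh signal was 9.49, while the remaining knockouts had 9.34 to 9.35.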

How the results depend on the processing

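No gene of the 4 was called in limma in any of 22 settings, where the lowest adjusted p was 0.601. The difference of Rpl13a stayed above 0 in all of them, from 0.083 to 0.179 over the alternatives and from 0.107 to 0.189 when 1 array was left out. Gapdh turned to -0.029 with median centring, which lowers all differences alike. With 1 array left out the differences ran from -0.0071 to 0.045 for Gapdh, -0.21 to 0.093 for B2m and -0.082 to 0.0077 for Hsp90ab1. The pair differences ran from -0.10 to 0.24 for Gapdh over B2m, -0.015 to 0.13 for Gapdh over Hsp90ab1 and -0.20 to 0.094 for B2m over Hsp90ab1, whose sign also turned without knockout replicate 3. The signs of 3 pairs did not turn, with -0.20 to -0.15 for Hsp90ab1 over Rpl13a, -0.20 to -0.062 for Gapdh over Rpl13a and -0.34 to -0.085 for B2m over Rpl13a. The pooled SD ran from 0.031 to 0.067 for Gapdh, 0.050 to 0.087 for Rpl13a, 0.078 to 0.106 for Hsp90ab1 and 0.389 to 0.456 for B2m, lowest without knockout replicate 1 for Gapdh and Rpl13a. With quantile normalization, which sets values by rank, it was 0.0213 for Gapdh. Without scaling, an alternative added after the data were seen, the pooled SD was 0.165 for Rpl13a and 0.190 for Hsp90ab1. The number of probes called over the array was 39, 11 when all 8 arrays had to be above background, a test of fewer probes, 25 with the ordinary variance and 28 to 79 with 1 array left out. It was 79 without control replicate 1 and 73 without knockout replicate 4. With the replicate block 34 probes were called and the limma unadjusted p of Rpl13a was 0.201. Same-numbered arrays had correlations of deviations of 0.06, -0.05, 0.36 and 0.24 for replicates 1 to 4. Between arrays of different number they ran from -0.29 to 0.087, and 5 of 8 arrays correlated best with their own number. A link by number was not tested. The main comparison did not take the numbers as pairs, and the replicate block did. The authors' values could not be used for the 4 genes.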
